A study of Mus musculus with 8 samples.

Results

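The sites described here are places in the mouse genome where the nuclear receptor LRH-1 was bound both before and after the ovulatory signal while the open chromatin around it was listed only before that signal. They were chosen as LRH-1 peaks after human chorionic gonadotropin (hCG) that share at least 1 bp with an LRH-1 peak before hCG, share at least 1 bp with a peak of open chromatin before hCG and share no base with an open chromatin peak after hCG. This rule took 873 of the 9413 LRH-1 peaks listed after hCG, and 873 of the 3940 that were present at both times (22.2%, exact binomial 95% confidence interval 20.9 to 23.5). The share was 13.7% over all LRH-1 peaks after hCG and 7.58% over those seen only after hCG. Presence and absence in the 4 lists chose the sites, so the counts of the rule and all values taken from the same lists are given as descriptions, without a test. The other LRH-1 peaks of both times serve for comparison. They comprise 1372 sites with open chromatin at both times, 327 with open chromatin after hCG only, and 1368 with none at either time.

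The study followed the ovary of C57BL/6 mice (genotype LRH-1 +/+) across hormonally induced ovulation. Follicles were first grown with an injection of 5 IU of equine chorionic gonadotropin (eCG) into mice 22 to 25 days old. Ovulation was then induced 44 h later with 5 IU of hCG, which acts as luteinising hormone does at the preovulatory surge. The groups used here are samples taken 4 h after hCG and samples taken at 0 h, just before it, and both had received eCG. LRH-1 binding was measured by chromatin immunoprecipitation (ChIP), and open chromatin by FAIRE, in which DNA poor in nucleosomes stays in the aqueous phase when fixed chromatin is extracted. The labels call both materials granulosa cells, the somatic cells around the oocyte, but their protocols differ. The FAIRE material was granulosa cells released by ovarian puncture, whereas the ChIP started from pieces of whole ovarian tissue. LRH-1 binding in other ovarian cells and FAIRE in granulosa cells therefore cannot be told apart from events within the same cells. Peak lists carry no expression values, and the labelled cell type was not checked against markers.

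LRH-1, encoded by Nr5a2, is an orphan member of the nuclear receptor family that binds DNA as a monomer at an extended response element. In the mouse ovary it is made in granulosa and luteal cells, acts on genes of steroid synthesis, and is needed for ovulation. A binding peak shows where the receptor could be fixed to DNA in many cells at once, and a FAIRE peak shows where the DNA was accessible. A site can appear in a list only if its signal passed the authors' threshold, so a missing FAIRE peak says that no peak was listed there and not that the chromatin was shut.

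Each time and assay had 1 deposited list, although the labels state 2 replicates. The lists held 9413 LRH-1 peaks after and 5886 before hCG, and 22791 FAIRE peaks after and 21431 before hCG. No spread between replicates can be computed, and the intervals below cover counting error only or, for a median, the spread over sites. Positions are those of mouse build mm9, with starts counted from 1. No mm9 sequence or gene annotation was used here, so the sites are named by position, without their genes or DNA motifs.

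At nearly all of these sites LRH-1 sat inside the FAIRE peak that was present before hCG, close to its middle. The LRH-1 summit after hCG lay within such a FAIRE peak at 850 of the 873 sites (97.4%), and at 782 of them the whole LRH-1 peak did. The rule asked for an overlap with such a peak, and the FAIRE peaks were the wider. High counts inside were thus largely set by the rule. The LRH-1 summit after hCG was a median of 79 bp from the midpoint of the FAIRE peak before hCG (interquartile range 38 to 154). For the LRH-1 summit before hCG the median was 74 bp. The summit after hCG lay within 100 bp of the midpoint at 514 sites (58.9%) and more than 500 bp away at 31. At LRH-1 sites with FAIRE at both times 55.9% lay within 100 bp, with a median distance of 86 bp. The FAIRE peaks themselves had a median width of 951 bp (interquartile range 854 to 1058), against 1039 bp at sites with FAIRE at both times. LRH-1 peaks were narrower, with a median of 348 bp after and 326 bp before hCG.

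**Figure D1:**
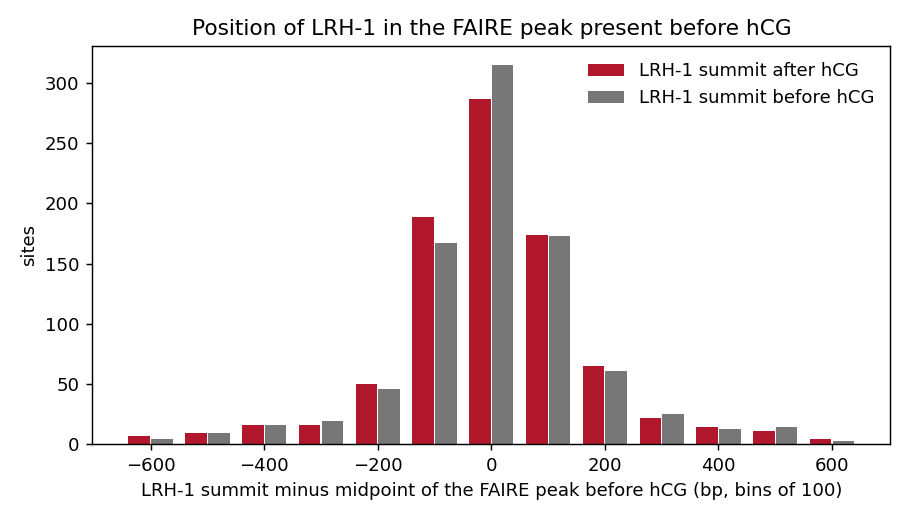
Number of sites (vertical axis) by the distance in bp from the LRH-1 summit to the midpoint of the FAIRE peak present before hCG (horizontal axis, bins of 100 bp), for the summit after hCG and the summit before hCG. The central bin is the highest at both times, with 287 and 315 sites, and 9 and 8 sites lie beyond the plotted range.

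The receptor was found at nearly the same position at both times. The summits of the LRH-1 peaks after and before hCG lay a median of 40 bp apart (95% interval of the median 37 to 44, interquartile range 18 to 79). They were within 50 bp of each other at 513 sites (58.8%) and more than 200 bp apart at 25. The median distance was 41 bp at sites with FAIRE at both times, 50 bp at sites with FAIRE after hCG only and 47 bp at sites with no FAIRE peak. The intervals of these 3 medians, 39 to 44, 42 to 53 and 44 to 49 bp, touch or overlap that of the sites described here.

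The FAIRE peaks at these sites before hCG were of low to high rank in their list by the authors' FAIRE score. Their scores ran from 40 to 458, while those of the whole list reached 2339, and the best of them stood at rank percentile 98.7. Their median score before hCG was 75.1 (95% interval 72.7 to 78.4), above the median of 70.5 for all FAIRE peaks before hCG and below the median of 119 at LRH-1 sites whose FAIRE peak was listed at both times. Of the 873 sites, 48 lay in FAIRE peaks of the best-scoring 10% of the list and 64 in those of the worst-scoring 10%. These were 13% of the 369 and 64.6% of the 99 LRH-1 peaks of both times in those groups. In 843 sites the FAIRE peak as a whole had no counterpart after hCG. In the other 30 it still overlapped a FAIRE peak after hCG, but outside the LRH-1 peak. The 873 sites fell into 868 different FAIRE peaks, and none of these held more than 2 sites.

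Seen from the FAIRE peaks, loss after hCG was less frequent in the upper groups by score before hCG than in the lower ones, both with and without LRH-1. Of all 21431 FAIRE peaks before hCG, 46.2% had no counterpart after hCG. Of the 2224 that held an LRH-1 peak of both times, 840 had none (37.8%, 95% interval 35.7 to 39.8), against 8093 of 16984 that held no LRH-1 peak at either time (47.7%, 95% interval 46.9 to 48.4). In the worst-scoring 10% of the list, 64 of 99 peaks with persistent LRH-1 were missing after hCG (64.6%, 95% interval 54.4 to 74), against 74.8% of those without LRH-1. In the best-scoring 10%, 38 of 361 peaks with persistent LRH-1 were missing (10.5%, 95% interval 7.56 to 14.2), against 24 of 1592 without LRH-1 (1.51%, 95% interval 0.968 to 2.23). One step below, in the ninth group of 10, the shares were 23.9% and 14.1%. In the fourth group the share with persistent LRH-1, 60.8%, was above those of the second (59%) and the third (56.9%). In the second group the peaks without LRH-1 had the higher share, at 73.2%. In the first group and those from the third to the eighth the intervals of both kinds of peak overlapped. These shares rest on the contrast that chose the sites and were not tested. Scores were not matched within a group. The best-scoring group ran from 192 to 2339, while FAIRE scores at LRH-1 peaks of both times reached 901. The 2 kinds of peak in that group were therefore not compared at like score. Width, position and any other property of the FAIRE peaks were not matched either.

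**Figure D2:**
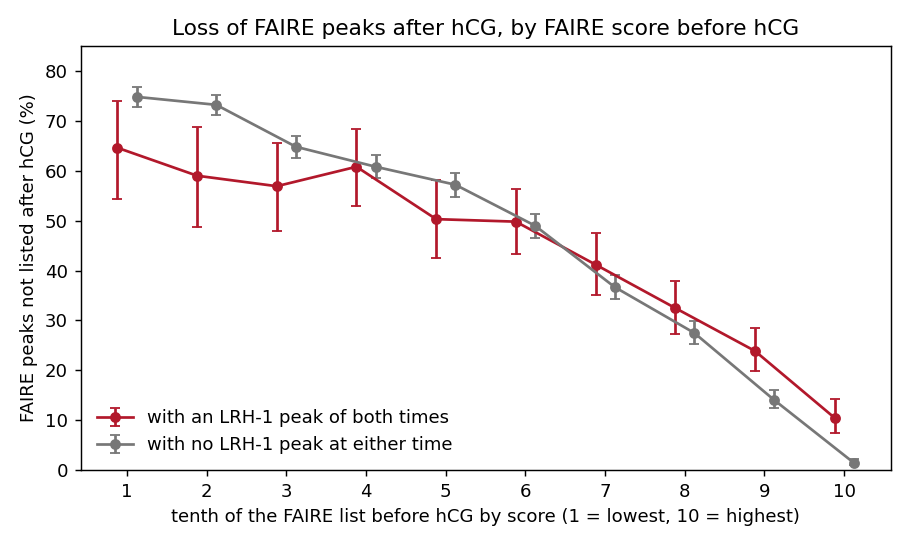
Percentage of FAIRE peaks before hCG with no FAIRE peak after hCG (vertical axis) in 10 equal groups by FAIRE score before hCG (horizontal axis), for peaks with an LRH-1 peak of both times and peaks with no LRH-1 peak at either time; bars are exact 95% intervals. Loss is 64.6% and 74.8% in the lowest group and 10.5% and 1.51% in the highest.

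The best-scoring FAIRE peaks before hCG that held the sites lay on chromosomes 13, 11 and 1. The best-scoring, on chromosome 13 at 16546119 to 16547593, had a FAIRE score of 458. LRH-1 was enriched 5.9-fold after and 16.9-fold before hCG there, the summit after hCG lay 122 bp from the middle of the FAIRE peak, and the nearest FAIRE peak after hCG was 10548 bp away. The next best, on the same chromosome at 16433288 to 16434888 (score 357), had 5.76-fold LRH-1 enrichment after and 8.86-fold before hCG. The third, on chromosome 11 at 121533349 to 121535197 (score 320), did not go missing as a whole: it still overlapped a FAIRE peak of score 420 after hCG, 76 bp from the LRH-1 peak, and LRH-1 stood at 6.07-fold after and 4.9-fold before hCG. A pair on chromosome 1 followed. The FAIRE peak at 81893200 to 81894279 scored 307, with LRH-1 at 7.96-fold after and 9.99-fold before hCG. That at 191254095 to 191255066 scored 303, with LRH-1 at 6.37-fold after and 5.55-fold before hCG. The enrichment was thus lower after hCG at 3 of these 5 sites and higher at the other two. At the low end, 3 sites on chromosomes 11 and 13 had FAIRE scores of 40 to 40.1 before hCG, next to the lowest score of the list, and LRH-1 enrichment of 4.77- to 5.69-fold after and 5.5- to 6.14-fold before hCG.

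LRH-1 binding at the 873 sites was moderate at both times. The authors' fold enrichment had a median of 5.7 after hCG (95% interval 5.57 to 5.85, range 3.32 to 16) and 6.3 before it (95% interval 6.19 to 6.43, range 3.65 to 16.9). The whole lists, which include peaks of 1 time only, had medians of 5.31 after and 5.75 before hCG. All LRH-1 peaks of both times had 5.9 after and 5.99 before hCG. The medians were 6.28 and 6.21 at sites with FAIRE at both times, and 5.68 and 5.69 at sites with no FAIRE peak. Enrichment was under 10-fold at both times at 799 sites, at least 10-fold at both times at 11, at least 10-fold before hCG only at 59, and after hCG only at 4. The same counts are not given here for the other LRH-1 peaks of both times, so they set nothing apart. The −log10 of the authors' q-value serves below as the LRH-1 score. By this score 125 sites were in the best-scoring 10% of the list after hCG and 161 in that of the list before hCG, and 77 were in both. Of the LRH-1 peaks of both times with FAIRE before hCG in those groups, these were 22.8% after and 37.4% before hCG. Over all such peaks the share was 38.9%. At the other end, 37 and 33 sites were in the worst-scoring 10% after and before hCG. These were 49.3% and 30.8% of such peaks there. Within the list after hCG the sites had a median rank percentile of 65.7, where 100 is the best peak, against 79.6 for LRH-1 sites with FAIRE at both times and 62.6 for persistent LRH-1 sites with no FAIRE peak. Within the list before hCG the same medians were 68.9, 67.2 and 48.2. In the list after hCG the sites thus ranked nearer to those with no FAIRE peak, and in the list before hCG nearer to those with FAIRE at both times. Ranks apply within a list.

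**Figure D3:**
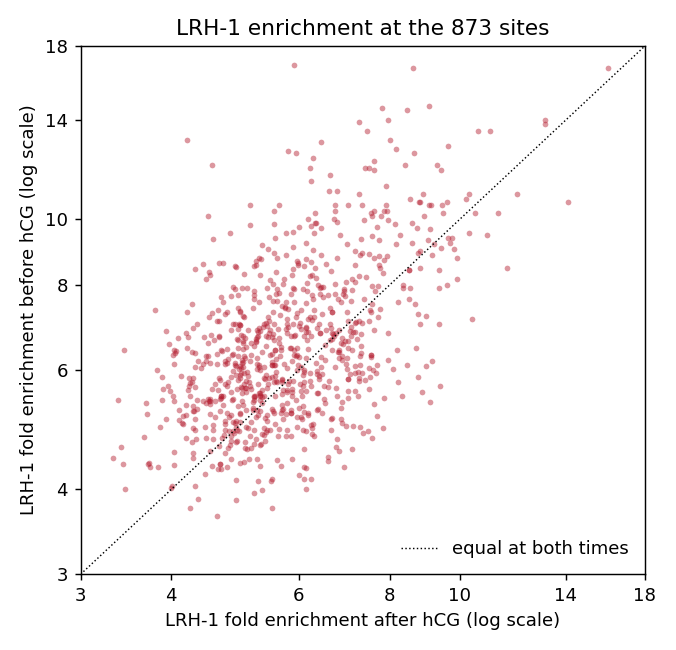
LRH-1 fold enrichment after hCG (horizontal axis, log scale) and before hCG (vertical axis, log scale) at each of the 873 sites; the dotted line marks equal values. More points lie above the line than below it, with 586 of 873 lower after than before hCG.

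Among the best-bound sites, some had near-equal enrichment at both times and others a much lower one after hCG. The highest LRH-1 score after hCG was 84.1, on chromosome 15 at 36012212 to 36012647, with 13.1-fold enrichment after and 14-fold before hCG; the nearest FAIRE peak after hCG lay 871 bp away. A site on chromosome 2 at 93985276 to 93985686 had 16-fold enrichment after and 16.7-fold before hCG, with summits 3 bp apart. A site on chromosome 17 at 4868047 to 4868501 had 13.1-fold after and 13.8-fold before hCG. The values of these 3 sites differ little between the times. The next by score after hCG had the higher enrichment after hCG. Chromosome 5, at 143584400 to 143585000, had 8.52-fold after and 7.62-fold before hCG. Chromosome 10, at 42874826 to 42875245, had 14.1-fold after and 10.6-fold before hCG. Of the 5 sites with the best LRH-1 score before hCG, the sites on chromosomes 15 and 2 just described were 2. In the other 3 the enrichment was much lower after hCG. On chromosome 1 at 186891576 to 186891907, which had the highest score before hCG at 98.8, it was 8.62-fold after and 16.7-fold before hCG. On chromosome 13 at 16546598 to 16546907, the site of the strongest missing FAIRE peak, the score was 10.1 after and 88.1 before hCG. On chromosome 16 at 76321834 to 76322231 the enrichment was 7.4-fold after and 11.9-fold before hCG.

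Over all 873 sites the enrichment was lower after than before hCG at 586 (67.1%, 95% interval 63.9 to 70.2), where 53.9% of all LRH-1 peaks of both times were lower. The median log2 of the fold after over before hCG was -0.16 (95% interval -0.19 to -0.14, interquartile range -0.39 to 0.08). It was -0.01 at sites with FAIRE at both times, 0.17 at sites with FAIRE after hCG only and -0.01 at sites with no FAIRE peak. Enrichment was more than 1.5 times lower after hCG at 108 of the 873 sites (12.4%, 95% interval 10.3 to 14.7), against 6.55% of all LRH-1 peaks of both times. It was more than 1.5 times higher at 12 (1.37%, 95% interval 0.712 to 2.39), against 4.16%. At sites with FAIRE after hCG only the order was the opposite, with 2.14% more than 1.5 times lower and 12.2% more than 1.5 times higher. The 2 ChIP lists come from separate samples and differ in length, and the level of the ratio depends on both. The classes can be set beside each other within the same pair of lists, but the median itself is not a change in binding. With the LRH-1 list after hCG shortened to its best 5886 peaks, the medians were -0.09 at the 682 sites left, 0.04 at sites with FAIRE at both times, 0.23 at sites with FAIRE after hCG only and 0.07 at sites with no FAIRE peak. These lists chose the sites, and the differences were not tested.

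**Figure D4:**
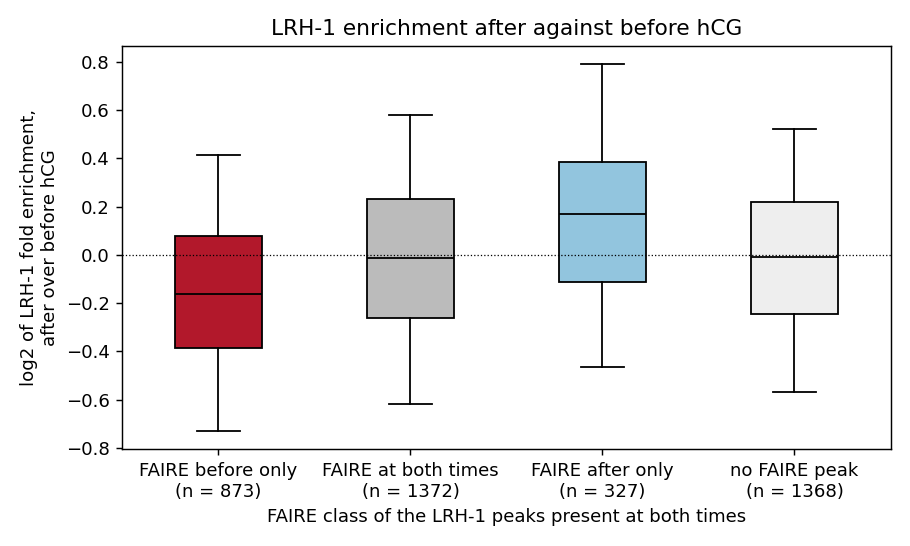
Log2 of the LRH-1 fold enrichment after over before hCG (vertical axis) at LRH-1 peaks of both times, by FAIRE class (horizontal axis); boxes give the median and quartiles and whiskers the 5th and 95th percentiles of sites. The medians are -0.16 for the sites with FAIRE before hCG only and -0.01, 0.17 and -0.01 for the other classes.

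The log2 ratio was also set beside that of sites with FAIRE at both times at like enrichment. In 5 equal groups of all LRH-1 peaks of both times, ordered by the mean of the log2 enrichment at both times, the median log2 ratio of the sites ran from -0.09 in the group of lowest enrichment (159 sites) over -0.14, -0.16 and -0.16 to -0.26 in the group of highest enrichment (177 sites). At sites with FAIRE at both times, the medians of the same groups were -0.04, -0.04, -0.02, 0.06 and -0.03. Grouped by enrichment before hCG alone, the medians ran from 0.15 in the lowest to -0.42 in the highest group, and from 0.22 to -0.21 at sites with FAIRE at both times. Grouped by enrichment after hCG alone, they were -0.35, -0.20, -0.14, 0.04 and 0.01 from the lowest to the highest group, against -0.29, -0.16, -0.05, 0.12 and 0.20 at sites with FAIRE at both times. Whether the ratio was above or below 0 thus varied with the grouping, while the median of the 873 sites was the lower of the 2 classes in every group of all 3 groupings. The intervals of both classes overlapped in the 2 lowest groups by the mean and by enrichment before hCG. By enrichment after hCG they overlapped in all groups but the highest. The 3 groupings reorder the same sites and are not separate comparisons, and these differences were not tested. The log2 ratio varied with the FAIRE score before hCG to a small degree. In 4 groups by FAIRE score before hCG, the median log2 ratio was -0.1, -0.15, -0.16 and -0.25 from the weakest to the strongest, and the median enrichment was 5.68, 5.94, 5.69 and 5.59 after hCG and 6.11, 6.22, 6.42 and 6.69 before it. Across the 873 sites the log2 ratio and the FAIRE score had a Pearson's r of -0.16 and a Spearman's rho of -0.16. FAIRE score and enrichment correlated with r = -0.011 after and r = 0.15 before hCG, and enrichment after and before hCG with r = 0.55. All sites share the same 4 lists in these correlations.

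The sites that moved most were named after their values were seen. The largest difference was on chromosome 11 at 50553048 to 50553305, with 4.2-fold enrichment after and 13.1-fold before hCG, a ratio of 0.32, in a FAIRE peak that had scored 103. It was followed by the site of the strongest missing FAIRE peak on chromosome 13, with a ratio of 0.348. The next 3 all lay on chromosome 14, at 21690567 to 21690939, at 77307926 to 77308191 and at 63783586 to 63783846. Their enrichment after hCG was 4.55-, 4.49- and 5.8-fold, against 12-, 10.1- and 12.6-fold before it. In the other direction, the site on chromosome 2 at 65252930 to 65253355 had 9.09-fold enrichment after and 5.38-fold before hCG. Its FAIRE peak before hCG was not missing as a whole. It still overlapped a FAIRE peak after hCG, which ended 643 bp from the LRH-1 peak. A site on chromosome 15 at 26797239 to 26797645 had 9.4-fold after and 5.68-fold before hCG, and the nearest FAIRE peak after hCG was 135716 bp away.

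After hCG the sites lay at distances from listed open chromatin close to those of LRH-1 sites that had none at any time. The nearest FAIRE peak after hCG was a median of 15608 bp from the LRH-1 peak (95% interval 13489 to 17797), against 14446 bp (95% interval 12539 to 16204) at LRH-1 sites of both times with no FAIRE peak. It lay within 500 bp at 38 sites (4.35%, 95% interval 3.1 to 5.93), against 5.04% of the sites with no FAIRE peak. Within 5000 bp the shares differed more, at 22.7% (95% interval 19.9 to 25.6) against 27.3% (95% interval 24.9 to 29.7). It lay within 10000 bp at 342 sites (39.2%), against 40.9%. Both classes were defined by having no FAIRE peak after hCG at the site. It lay beyond 100000 bp at 68 sites (7.79%). The nearest FAIRE peak was one seen only after hCG at 420 sites (48.1%, 95% interval 44.7 to 51.5), against 45.8% at sites with no FAIRE peak. Among the 38 sites with a FAIRE peak within 500 bp, it was one seen only after hCG at 5. At the rest it overlapped a FAIRE peak before hCG. Each site itself overlapped a FAIRE peak before hCG, with a median width of 951 bp. A FAIRE peak so close after hCG could overlap that same peak, so this split was partly set by the rule.

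**Figure D5:**
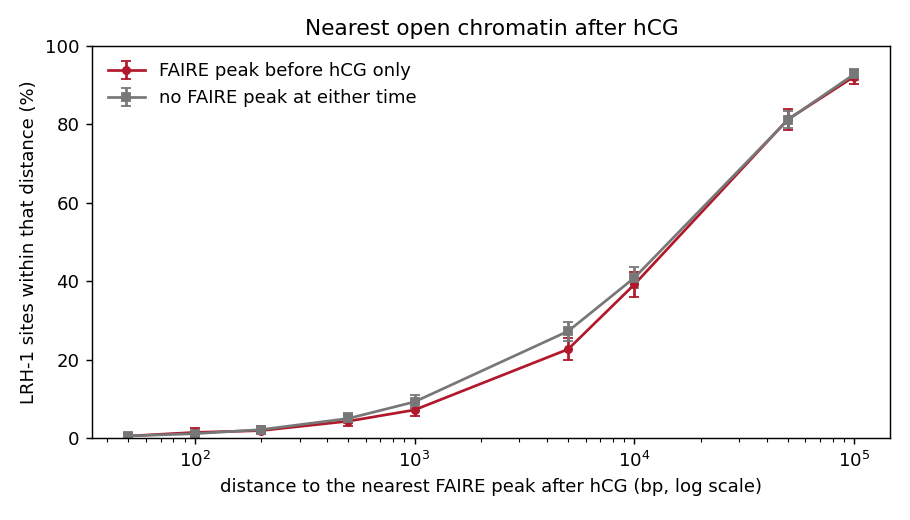
Percentage of LRH-1 sites of both times (vertical axis) with a FAIRE peak after hCG within a given distance in bp (horizontal axis, log scale), for the 873 sites with FAIRE before hCG only and the 1368 with no FAIRE peak at either time; bars are exact 95% intervals. Both curves pass 4.35% and 5.04% at 500 bp and reach 92.2% and 92.8% at 100000 bp.

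The edge of the rule was described by distance and by score, which have no common scale. The nearest sites lay 1 bp from a FAIRE peak after hCG on chromosome 4 at 15992134 to 15992413, 26 bp on chromosome 12 at 60113627 to 60114012 and 34 bp on chromosome 15 at 99279545 to 99279846. In all 3 the FAIRE peak before hCG still had a counterpart after it. In total 5 sites lay within 50 bp of a FAIRE peak after hCG, with a median enrichment of 6.22-fold after and 6.32-fold before hCG. On the other side, 6 sites with FAIRE at both times shared at most 50 bp with the FAIRE peak after hCG, with medians of 4.38- and 4.92-fold. By score, 76 of the 873 sites had a FAIRE score before hCG of at most 45, with median enrichments of 5.88-fold after and 6.07-fold before hCG. At 71 sites with FAIRE at both times the score after hCG was at most 45, just above the lowest listed score of 40, with 5.56-fold after and 5.96-fold before hCG. The site farthest from any FAIRE peak after hCG was 856838 bp away, on chromosome 1 at 128430678 to 128431048. It was followed by one on chromosome 8 at 5490440 to 5490726 (710391 bp) and one on chromosome 2 at 55287183 to 55287475 (589744 bp). LRH-1 enrichment there was 5.69-, 6.17- and 5.26-fold after hCG, against 5.75-, 6.43- and 4.43-fold before it.

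The sites were spread over all chromosomes. Their number ran from 14 on chromosome X to 69 on chromosome 2. Their share of the LRH-1 peaks of both times ran from 18.1% on chromosome 5 (47 of 260, 95% interval 13.6 to 23.3) to 35% on chromosome X (14 of 40, 95% interval 20.6 to 51.7), where the peaks were fewest. Among the 19 autosomes the highest share was 27% on chromosome 13 (47 of 174, 95% interval 20.6 to 34.3). The intervals of chromosomes 5 and X overlapped. Over windows of 1 Mb, 643 held at least 1 site, 174 held 2 or more, 6 held 4 and 1 held 5. Window counts of the other LRH-1 peaks of both times are not given here, so these numbers do not show clustering particular to the sites.

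The window with the most sites, on chromosome 13 from 112000001 to 113000000, held 5 of the sites, 1 LRH-1 peak of both times with FAIRE at both times, 2 with no FAIRE peak and 5 LRH-1 peaks seen only after hCG. In this window 10 of 23 FAIRE peaks before hCG were missing after it, and 9 of 22 after hCG had not been there before. The LRH-1 enrichment of its 5 sites was lower after hCG in each, at 3.44- to 4.68-fold after and 4.77- to 6.42-fold before hCG. It was lower at 67.1% of all 873 sites and at 53.9% of all LRH-1 peaks of both times. On chromosome 1 from 186000001 to 187000000, 4 sites stood among 20 FAIRE peaks before hCG of which 15 were missing after it, with no LRH-1 site of constant open chromatin. That window holds the site with the best LRH-1 score before hCG. On chromosome 4 from 149000001 to 150000000, 4 sites stood beside 6 LRH-1 sites with FAIRE at both times and 1 with FAIRE after hCG only, and 14 of 32 FAIRE peaks before hCG were missing after it. The FAIRE counts of these windows include the peaks that held the sites, where the rule itself asked for absence after hCG. The windows were also picked for their number of sites, so these counts do not describe loss around the sites.

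Around the sites, other FAIRE peaks went missing about as often as elsewhere. Among FAIRE peaks before hCG that held no LRH-1 peak of both times, 47.2% had no counterpart after hCG. Of those within 50000 bp of the sites, 638 of 1358 were missing (47%, 95% interval 44.3 to 49.7), against 888 of 2019 near LRH-1 sites with FAIRE at both times (44%, 95% interval 41.8 to 46.2). Within 10000 bp the order was the other way round, at 45.5% and 50.4%, within 100000 bp the shares were 46.8% and 44.3%, and within 500000 bp both were 45.1%. The share was higher near the sites on 7 of 20 chromosomes within 10000 bp, on 14 within 50000 bp, on 13 within 100000 bp and on 8 within 500000 bp. FAIRE peaks seen only after hCG lay within 50000 bp of 504 sites (57.7%, 95% interval 54.4 to 61) and of 61.2% of the LRH-1 sites with FAIRE at both times. LRH-1 peaks seen only after hCG lay within 50000 bp of 373 sites (42.7%, 95% interval 39.4 to 46.1), against 41.7%. Another of the 873 sites lay within 50000 bp of 100 sites (11.5%). At least 1 of them lay that close to 11.4% of the sites with FAIRE at both times. None of these neighbourhood shares sets the sites apart from those with FAIRE at both times beyond their intervals. Against sites with no FAIRE peak the intervals also overlapped within 50000 bp. Within 500000 bp, however, LRH-1 peaks seen only after hCG lay near 91.4% of the sites (95% interval 89.3 to 93.2). At sites with no FAIRE peak this share was 94.9% (95% interval 93.6 to 96), and the difference was not tested.

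In 5 FAIRE peaks before hCG, on chromosomes 5, 7, 9, 10 and 13, a pair of LRH-1 sites lay side by side. On chromosome 10 the FAIRE peak at 94780378 to 94782112 held LRH-1 sites with summits at 94780598 and 94781791. The first had 4.34-fold enrichment after and 5.41-fold before hCG, the second 5.38-fold after and 5.1-fold before it. On chromosome 13 the FAIRE peak at 49340294 to 49342117, with a score of 219, held sites of 5.35- and 4-fold after and 6.95- and 4.02-fold before hCG. On chromosome 5, within 123983795 to 123985027, the enrichment was lower after hCG at one site (4.51-fold after, 5.4-fold before) and higher at its neighbour (6.67-fold after, 5.1-fold before). The sites paired on chromosomes 7 and 9 each matched the same LRH-1 peak before hCG, so that 873 sites stand for 871 peaks before hCG.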

How the data were processed

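LRH-1 ChIP and FAIRE peak lists of wild-type mice were used, 1 list per time and assay, from samples labelled with 2 replicates each. Per the submitters' processing notes, reads were aligned with BWA to mm9, and MACS2 2.1.0 and bedtools were used for the ChIP data. Read depths and any pooling of replicates are not given in the sources used here. Each FAIRE peak carries a score in the deposited lists, and none is below 40. The deposited LRH-1 lists give a fold enrichment ratio and the −log10 of p- and q-values per peak, and these are the authors' values.

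Overlaps of at least 1 bp, distances and medians were computed with pandas 2.3.3, numpy 2.4.6 and scipy 1.17.1 (Python 3.11.15). Overlaps were checked on simulated lists and against bedtools. A site overlapping several peaks was matched to the best-scoring one. Intervals of shares are exact (Clopper-Pearson) and those of medians come from order statistics, both at 95%. FAIRE midpoints stand for summits.

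Sites named are the 5 best by LRH-1 score at each time and by FAIRE score, the 3 nearest to and farthest from FAIRE after hCG, the 3 of lowest FAIRE score, and the 3 fullest windows of 1 Mb. Sites ranked by their ratio, and those that share a FAIRE peak, were named after their values were seen. The sites, lists and comparisons were chosen with earlier results of these data known. RNA, gene links and motifs were not analysed here.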

Additional observations from a re-analysis of the deposited data

How the results depend on the processing

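The number of sites stayed between 706 and 921 under 7 of the alternatives planned, which changed the overlap rule, the meaning of absence, the lengths of the lists or the list counted. It was 447 with the better-scoring 50% of each LRH-1 list and 488 with the better-scoring 50% of the FAIRE list before hCG, which hold fewer peaks by construction. The best-scoring 10% of that FAIRE list, an alternative added after the data were seen, left 48.

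With the halved LRH-1 lists, median enrichment was 6.46 after and 7.31 before hCG, the median distance between summits 34 bp and that to the nearest FAIRE peak after hCG 13336 bp. With equal numbers of peaks at both times, median enrichment was 6.1 after and 6.61 before hCG, and the distance between summits 36 bp. With the halved FAIRE list, enrichment before hCG was 6.62 and the FAIRE score 101. In its best 10%, enrichment before hCG was 6.71, the FAIRE score 215, the distance between summits 62 bp and that to FAIRE 12141 bp. The median log2 of the fold after over before hCG, added after the data were seen, was negative throughout, at -0.20 with the halved FAIRE list, -0.09 with equal numbers and -0.32 in the best 10%. Windows of 1 Mb with 2 or more sites numbered 65, 77 and 2 in the halved LRH-1 lists, the halved FAIRE list and its best 10%. The other values stayed within the interval of the median or, for counts, within 1.5 times. No paired analysis was possible because each time has 1 list, and no replicate could be left out. Links to genes, RNA and motifs were not run.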
